A study of Mus musculus with 10 samples.

Results

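The genes described here are 3 Gadd45 genes (Gadd45a, Gadd45b and Gadd45g) and 5 genes of dual-specificity phosphatases (Dusp1, Dusp4, Dusp5, Dusp6 and Dusp14). They were selected on their measured differences between injured and naive neurites in these libraries, and taken by symbol from a table of 45195 Ensembl gene IDs, of which 15712 were high enough to be tested, the 8 among them. RNA came from neurites, the axons and dendrites that cortical neurons of E16.5 mouse embryos had sent through membrane pores of 3 µm. The neurons were wild type or Cpeb1 flox/flox, both on the C57BL/6 background and both 8 days in vitro. All cultures, controls included, received AAV2 carrying Cre under the CAG promoter, which is active in every cell type, so Cre itself is shared by all groups. Naive neurites were left intact, while injured ones were scraped off below the membrane on day 7 and sampled 24 hours later. By design the RNA is thus that of regrown neurites, though the libraries also held RNA of astrocyte genes, as given below. The groups were 3 wild-type naive, 3 wild-type injured, 2 Cpeb1 flox/flox naive and 2 Cpeb1 flox/flox injured libraries, and the latter pair of groups is called knockout, as the series does. Whether replicates came from different cultures is not in the labels, and every p-value below reflects the spread among these libraries alone, which may be technical.

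Gadd45 proteins are small acidic proteins made when cells are stressed, damaged or stimulated. They bind and activate MAP3 kinase 4, which feeds the p38 and JNK kinases, and they also bind cell cycle proteins and help to remove methyl groups from DNA, a role described for Gadd45b in stimulated neurons. Dual-specificity phosphatases work in the other direction: they remove phosphate from both the threonine and the tyrosine that switch a MAP kinase on. Many of their genes are themselves induced by the kinases they shut off, so that the pathway limits itself. Within the family, Dusp1 and Dusp4 are nuclear and act on ERK, JNK and p38, Dusp5 is nuclear and Dusp6 cytoplasmic with a preference for ERK, and Dusp14 is a small atypical member.

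The deposited values were read as fragments per kilobase of transcript relative to sequencing depth, on a scale close to FPKM. The unit is not stated, and TPM is not excluded. Levels can be compared between genes on either scale. The depth and fragment numbers given here assume FPKM. Depth was estimated at 21.45 to 28.11 in units of 1e6 fragments per library from regular steps in the values. The gene-level Cpeb1 value did not separate the genotypes. Wild-type libraries had 7.16, 5.96 and 5.86 when naive and 1.65, 13.8 and 22.6 when injured. Knockout libraries had 5.97 and 0.356 when naive and 1.14 and 3.15 when injured. The library labelled knockout naive 1 thus lay within the wild-type naive range, and wild-type injured 1 lay between both knockout injured libraries. Which exons are deleted is not given in the sources used here, and reads outside them would not check the labels. Each genotype difference below therefore compares libraries by their labels. The neuronal marker list summed to 2681 to 5003 in the 10 libraries, and the 10 astrocyte markers summed to 2512 to 5548. Most of the latter was Fabp7, which radial glia also express, with group means of 2308 to 3488, and the other 9 summed to 397.7 to 1473. The microglial genes Cx3cr1 and Tmem119 were listed at 0 in all 10. The libraries labelled as neurites thus also held RNA of astrocyte genes.

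In intact wild-type neurites the 8 genes lay at low to moderate levels. The highest was Dusp1 at 18.7 ± 5.69 (SD, n = 3), followed by Dusp6 at 16.4 ± 3.81, Dusp14 at 14.5 ± 6.15 and Gadd45g at 9.57 ± 5.55. Dusp4 at 4.51 ± 2.48, Gadd45b at 3.23 ± 2.46, Dusp5 at 1.88 ± 1.10 and Gadd45a at 1.00 ± 0.89 followed. The libraries of each neighbouring pair in this order overlapped. After injury the order was a different one. Gadd45g came first at 348 ± 118 (SD, n = 3), above Dusp1 at 111 ± 29.3 with no overlap, and Dusp1 lay above Gadd45b at 60.2 ± 16.9 with no overlap. Dusp14 at 51.0 ± 2.70 overlapped with Gadd45b and with Dusp6 at 38.4 ± 10.8 below it. Dusp6 lay above Dusp5 at 15.2 ± 8.90, with no overlap, and Dusp5, Gadd45a at 10.3 ± 9.49 and Dusp4 at 8.54 ± 0.55 could not be ordered beyond their spread. In knockout naive neurites the 3 highest were again Dusp1, Dusp6 and Dusp14, at 24.8 ± 14.9, 15.4 ± 7.11 and 14.8 ± 2.39 (SD, n = 2). In knockout injured neurites Gadd45g led at 137 ± 93.3 (SD, n = 2) but overlapped with Dusp1 at 52.5 ± 32.6.

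**Figure D1:**
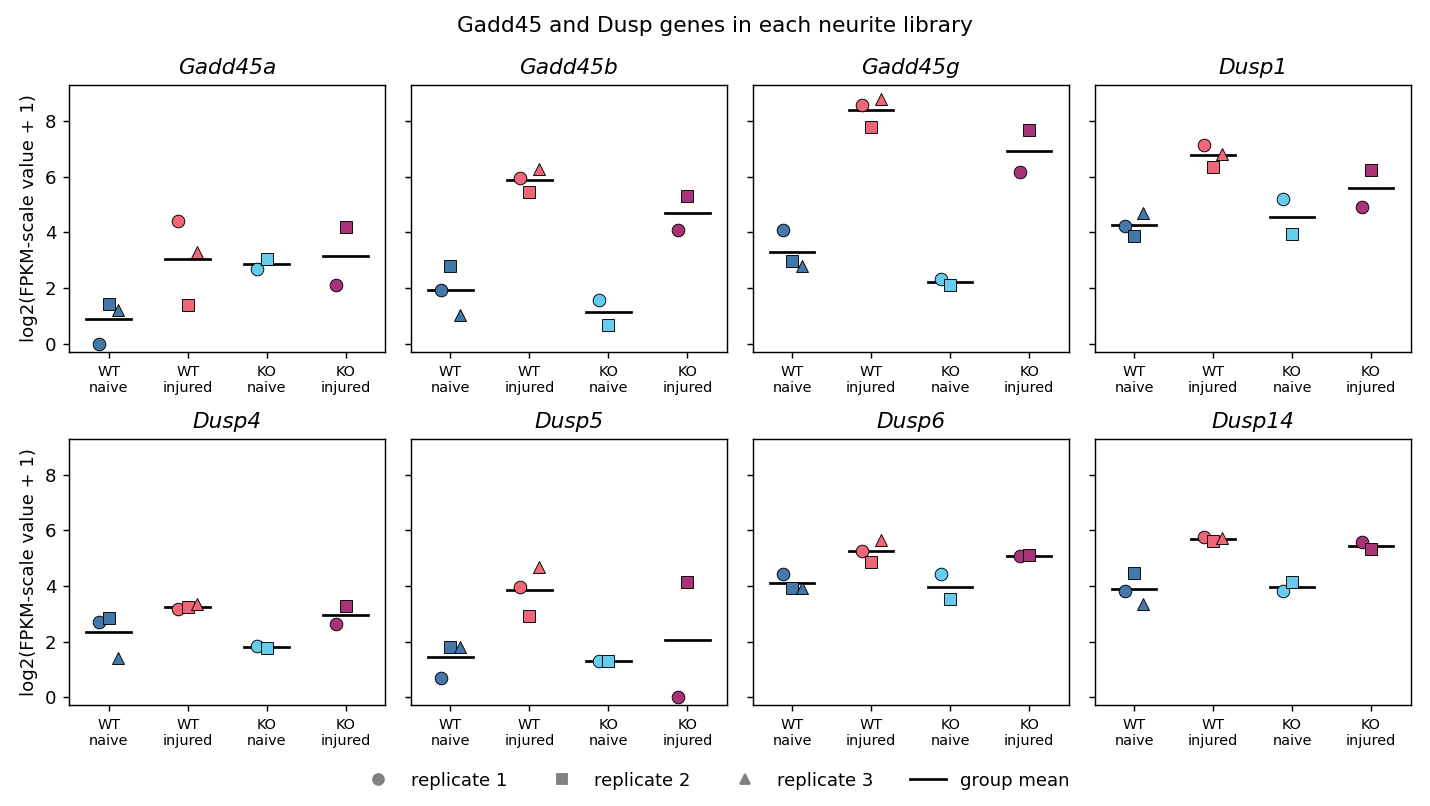
Each panel shows 1 gene, with the 4 groups on the x axis (WT, wild type; KO, knockout) and log2(value + 1) on the y axis, where the value is on an FPKM scale; symbols are libraries by replicate number and black bars are group means. Gadd45b and Gadd45g stand far higher in injured libraries of both genotypes, while Gadd45a overlaps between naive and injured wild type.

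Gadd45g and Gadd45b had the widest injury differences of the 8 genes in both genotypes. Gadd45g was 16.0, 6.83 and 5.92 in wild-type naive libraries and 378, 218 and 448 after injury. In the knockout it was 3.94 and 3.26 in naive and 70.8 and 203 in injured libraries. All 5 injured libraries were above all 5 naive ones, and the wild-type means differed by 36.4-fold and the knockout means by 38.0-fold. Gadd45b was 2.78, 5.89 and 1.03 in naive wild-type libraries and 61.6, 42.7 and 76.4 after injury. In the knockout it went from 1.95 and 0.602 to 16.0 and 38.1, so again no naive library reached an injured one, and the means differed by 18.6-fold in wild type and 21.2-fold in the knockout. At its median transcript length of 1008 nt, the naive values of Gadd45b rest on about 10 to 121 fragments per library. The injured ones rest on about 340 to 1032.

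Gadd45a differed from both relatives. It was listed at 0 in wild-type naive 1 and was 1.69 and 1.31 in the others, against 20.4, 1.60 and 8.84 after injury. Wild-type injured 2 thus lay inside the naive range. Knockout values were 5.39 and 7.28 in naive and 3.26 and 17.2 in injured libraries, which lay on either side of the naive ones. At the median length of its transcripts, 716 nt, an estimated 225 fragments or fewer stood behind each of these values. The longest transcript has 1223 nt, and more RNA of that length would mean more fragments. Of the exon bases of Gadd45a, 19.1% are shared with the opposite-strand gene E230016M11Rik, and the libraries do not keep the strand, so reads of the 2 genes cannot be told apart there.

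The RefSeq windows from 250 bases before to 50 after the start are shown for Gadd45b and Gadd45g, the pair with the widest injury differences (GRCm38.p6, both on the plus strand, chr10:80929841-80930140 and chr13:51846425-51846724). Capitals mark TATAAA, the letters of a TATA box.
Gadd45b: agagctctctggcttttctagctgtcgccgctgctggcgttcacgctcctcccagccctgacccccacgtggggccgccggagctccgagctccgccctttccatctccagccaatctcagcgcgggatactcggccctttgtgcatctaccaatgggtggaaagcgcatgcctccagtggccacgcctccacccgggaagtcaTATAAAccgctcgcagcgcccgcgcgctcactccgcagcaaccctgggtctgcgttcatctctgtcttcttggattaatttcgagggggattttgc
Gadd45g: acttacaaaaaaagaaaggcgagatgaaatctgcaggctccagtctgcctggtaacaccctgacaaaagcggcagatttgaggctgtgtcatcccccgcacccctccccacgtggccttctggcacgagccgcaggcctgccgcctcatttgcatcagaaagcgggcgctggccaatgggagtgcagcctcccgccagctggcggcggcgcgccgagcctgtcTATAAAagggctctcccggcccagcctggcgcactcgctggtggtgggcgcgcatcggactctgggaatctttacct
The match starts 46 bases before the start in Gadd45b and 27 before it in Gadd45g. TATAAA on either strand was present in both of these among the 7 members with a window, and in 13.6% of all 32851 windows. The AP-1 letters TGANTCA were in none of the 7, against 7.81% of all windows, and Dusp4 had no window in the table.

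Among the phosphatases that act on all 3 classes of MAP kinase, Dusp1 was 17.6, 13.6 and 24.8 in naive wild-type libraries and 140.0, 81.3 and 111 after injury. The knockout values were 35.3 and 14.3 in naive and 29.4 and 75.5 in injured libraries. The groups were apart in wild type, with means differing by 5.93-fold, and overlapped in the knockout, where knockout injured 1 lay below knockout naive 1. Dusp4, a close relative of Dusp1, was 5.58, 6.27 and 1.67 in naive wild-type libraries and 8.04, 8.46 and 9.13 after injury. In the knockout it was 2.54 and 2.42 in naive and 5.26 and 8.71 in injured libraries. Injured libraries were higher within each genotype, but wild-type naive 1 and 2 both lay above knockout injured 1.

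Of the ERK-preferring phosphatases, Dusp6 was 20.8, 14.0 and 14.4 in naive wild-type libraries and 37.2, 28.2 and 49.7 after injury. Its knockout values were 20.5 and 10.4 in naive and 32.3 and 33.2 in injured libraries. All injured libraries were above all naive ones, by 2.34-fold in the wild-type means and 2.12-fold in the knockout means. Dusp5 was 0.615, 2.52 and 2.51 in naive wild-type libraries and 14.7, 6.57 and 24.4 after injury. In the knockout it was 1.45 and 1.46 in naive libraries, 16.7 in knockout injured 2 and listed at 0 in knockout injured 1, although the other 7 genes had values above 3 in that library. Of its exon bases, 22.1% lie opposite a gene model, AC137853.2, that is not among the values.

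Dusp14, the atypical phosphatase, lay close together in the injured libraries. It was 13.1, 21.3 and 9.23 in naive wild-type libraries and 52.7, 47.8 and 52.4 after injury. In the knockout it was 13.1 and 16.51 in naive and 46.7 and 39.0 in injured libraries. The means differed by 3.51-fold in wild type and 2.89-fold in the knockout, with no overlap across all 10 libraries.

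The windows at the start of Dusp1 (GRCm38.p6, minus strand, chr17:26508423-26508722) and Dusp5 (plus strand, chr19:53528895-53529194) are shown because they held the letters of sites that MAP kinase signalling is known to act through. Capitals in Dusp1 mark the cyclic AMP response element TGACGTCA and its half-site TGACG. Capitals in Dusp5 mark matches to the serum response element, side by side, and a half-site read on the other strand.
Dusp1: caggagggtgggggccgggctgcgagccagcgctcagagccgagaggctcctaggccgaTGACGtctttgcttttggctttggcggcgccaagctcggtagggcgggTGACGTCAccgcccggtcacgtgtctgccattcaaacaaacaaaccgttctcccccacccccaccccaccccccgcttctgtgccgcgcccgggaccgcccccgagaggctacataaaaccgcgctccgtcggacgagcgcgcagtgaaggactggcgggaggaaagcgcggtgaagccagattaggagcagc
Dusp5: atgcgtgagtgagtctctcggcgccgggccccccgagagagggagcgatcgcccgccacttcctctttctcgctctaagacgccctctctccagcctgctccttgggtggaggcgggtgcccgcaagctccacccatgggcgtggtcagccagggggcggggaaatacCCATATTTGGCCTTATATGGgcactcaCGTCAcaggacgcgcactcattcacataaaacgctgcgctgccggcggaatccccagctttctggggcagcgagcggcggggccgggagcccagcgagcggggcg
Of the 7 members with a window, only Dusp1 held TGACGTCA, as did 1.79% of all windows, and only Dusp5 held a serum response element, as did 1.63%. The half-site, which also lies within TGACGTCA, was in both of them and in 20.8% of all windows.

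On the log2(value + 1) scale, injured minus naive in wild type ranged over the 8 genes from 0.92 ± 0.52 (SE) for Dusp4 to 5.10 ± 0.43 for Gadd45g. Dusp4 was at 0.46 without wild-type naive 3. Gadd45b stood at 3.99 ± 0.53, Dusp1 at 2.51 ± 0.41, Dusp5 at 2.41 ± 0.89, Gadd45a at 2.15 ± 0.80, Dusp14 at 1.82 ± 0.31 and Dusp6 at 1.16 ± 0.34. The 8 genes were chosen with these comparisons in view, so the differences are a description and carry no test here. The same holds for the counts past a threshold or without overlap, and for the shares beside them. The median was 2.28, against 0.0092 over all genes tested. Of the 8, Gadd45b, Gadd45g, Dusp1 and Dusp14 were past an adjusted p of 0.05 and higher, as were 0.700% of all genes tested. Without overlap 7 were higher, all but Gadd45a, as were 9.78% of all genes. Dusp1 did not pass without wild-type naive 1 (2.49), without wild-type naive 2 (2.31) or without wild-type injured 1 (2.33). Dusp14 did not pass without wild-type naive 1 (1.78), wild-type naive 3 (1.55) or wild-type injured 1 (1.79).

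In the knockout, injured minus naive was 4.72 ± 0.53 (SE) for Gadd45g and 3.57 ± 0.65 for Gadd45b. It was 1.47 ± 0.39 for Dusp14, 1.16 ± 0.64 for Dusp4, 1.11 ± 0.41 for Dusp6 and 1.03 ± 0.50 for Dusp1. Dusp5 at 0.78 ± 1.09 and Gadd45a at 0.28 ± 0.98 had standard errors larger than the difference. Dusp1 was at 0.41 without knockout naive 2 and at 0.37 without knockout injured 2, 1.66 and 1.70 without the other library of each pair, and Dusp6 was at 0.65 without knockout naive 2. The median was 1.14, against -0.087 over all genes tested. Counts past a threshold or without overlap are again a description of genes chosen on such differences. Gadd45g alone was past an adjusted p of 0.05 and higher, as were 0.0255% of all genes tested. It no longer passed without wild-type injured 1 (4.72), knockout naive 1 (4.83), knockout naive 2 (4.62) or knockout injured 2 (3.97). Gadd45b, Gadd45g, Dusp4, Dusp6 and Dusp14 were higher without overlap, as were 13.5% of all genes. Over both genotypes, all 5 injured libraries were above all 5 naive ones for Gadd45b, Gadd45g, Dusp6 and Dusp14, and for 1.27% of all genes tested.

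**Figure D2:**
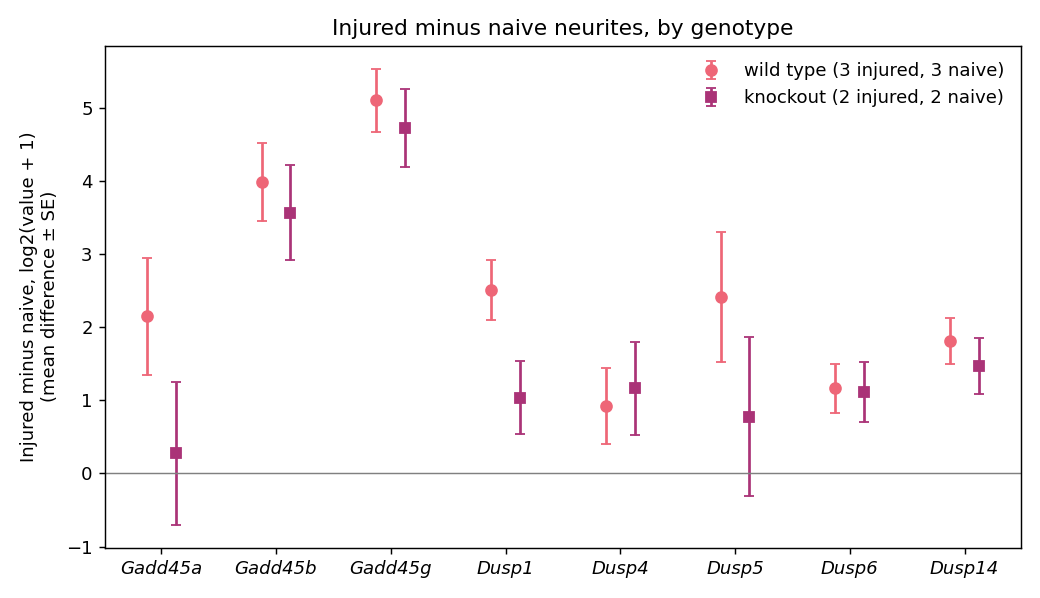
Points are the mean difference between injured and naive libraries of each gene on the log2(value + 1) scale, with standard errors from the fit, for wild type (3 against 3) and knockout (2 against 2). All 16 points lie above 0, from 0.28 for Gadd45a in the knockout to 5.10 for Gadd45g in wild type. The genes were chosen with these comparisons in view.

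Markers of other cells also differed between injured and naive libraries. Injured minus naive in wild type had a median of 0.86 over 10 astrocyte markers, of which Sox9 rose. The median was 0.56 over 6 radial glia markers, of which Vim rose, and -0.36 over 10 neuronal markers, of which none passed. Of all genes tested, 0.700% rose. An unadjusted p under 0.05 in limma was reached by 6 astrocyte, 1 radial glia and 7 neuronal markers, and by 13.9% of all genes. The summed astrocyte level was 2512 to 3123 in naive and 2798 to 5548 in injured wild-type libraries, and 3477 to 4521 and 4236 to 4291 in the knockout. Without Fabp7 it was 397.7 to 542.4 and 620.2 to 1473 in wild type, and 491.6 to 562.8 and 728.9 to 821.5 in the knockout. The radial glia sum was 120.9 to 225.7 and 377 to 713.9 in wild type, and 152.8 to 264.7 and 220.2 to 411.9 in the knockout. Nuclear-retained RNAs, for cell bodies, summed to 2781 to 4201 and 6103 to 7335 in wild type and to 2353 to 3238 and 1834 to 2982 in the knockout, with Malat1 the 1 of 7 that rose in wild type. Malat1 makes up most of that sum, with means of 2633 and 5988 in naive and injured wild type, while the median difference of the 7 RNAs was -0.26 in wild type and -0.40 in the knockout. Wild-type injured 3 had the highest median for astrocyte markers against the naive mean, at 1.35. Without that library the wild-type injury difference was 4.89 for Gadd45g, 3.80 for Gadd45b, 2.49 for Dusp1 and 1.80 for Dusp14. It was 2.01 for Dusp5, 2.02 for Gadd45a, 0.96 for Dusp6 and 0.88 for Dusp4. With all libraries these 8 values were 5.10, 3.99, 2.51, 1.82, 2.41, 2.15, 1.16 and 0.92, in the same order. The astrocyte medians of wild-type injured 1 and 2, which stayed in, were 0.58 and 0.44. Interneuron markers summed to 449 to 717.2 in naive and 56.93 to 90.23 in injured wild-type libraries, and 5 of 9 fell. In the knockout they summed to 488 to 855.3 and 63.78 to 113.4, and 1 of 9 fell. Of all 15712 genes tested, 149 passed in either direction in wild type and 9 in the knockout. An unadjusted p under 0.05 in limma was reached by 8 of the 9 in wild type and 6 in the knockout. The shares of all genes were 13.9% and 5.73%. The part of these cells in the Gadd45 and Dusp values was not tested, and in bulk RNA fewer cells of a type and less RNA per cell cannot be told apart.

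The same libraries were low or high for several of the genes. Wild-type injured 2 was the lowest of its group for 7 of the 8, all but Dusp4, and wild-type injured 3 the highest for 5. Knockout injured 1 was the lower of its pair for 7, all but Dusp14. Such ranks were not counted over all genes, so they are not shown to be particular to the 8. Median-ratio scaling factors over all genes were 1.044, 1.034 and 1.128 in wild-type injured 1, 2 and 3. They were 0.996 and 1.008 in knockout injured 1 and 2, and their part in these ranks was not tested. Over all 10 libraries, Pearson's r of log2(value + 1) was 0.97 between Gadd45b and Gadd45g and 0.94 between Gadd45b and Dusp14. Gadd45a had r of 0.28 to 0.64 with the other members. These 10 points share libraries and the injured and naive groups, so the values describe the set only.

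Knockout and wild-type neurites were next compared without injury. The naive libraries entered the differences on which the 8 were selected, so this comparison is not independent of that choice either. None of the 8 genes passed, with an adjusted p of 1 in limma for each, while 0.146% of all genes did. At an unadjusted p under 0.05 there were 2, Gadd45a and Gadd45g, as were 3.76% of all genes. Gadd45a was 1.98 ± 0.90 (SE) higher on the log2(value + 1) scale in the knockout, with a 95% interval from 0.046 to 3.92, and both knockout libraries were above the 3 wild-type ones. It was the only member higher without overlap, as were 14.1% of all genes. Gadd45g differed by -1.08 ± 0.49, with an interval from -2.13 to -0.034, and was the only member lower without overlap, as were 8.51% of all genes. Without knockout naive 1, the library whose Cpeb1 value lay in the wild-type range, these differences were 2.17 and -1.19, and that of Gadd45g was -0.68 without wild-type naive 1. The Gadd45a difference was 3.33 with a pseudocount of 0.1 and 0.92 with one of 5. The intervals of Dusp6 (-0.94 to 0.68), Dusp14 (-0.67 to 0.85) and Dusp1 (-0.69 to 1.29) included 0, and Dusp1 turned to -0.33 without that library.

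In injured neurites 7 of the 8 genes were lower on average in the knockout, and none passed, while 0.261% of all genes did. The injured libraries entered the differences on which the 8 were selected, so this comparison is not independent of the choice. The median of the 8 was -0.73, against -0.049 over all genes tested. Gadd45g had the smallest adjusted p. It was 378, 218 and 448 in wild type and 70.8 and 203 in the knockout, a difference of -1.47 ± 0.49 (SE), with a 95% interval from -2.52 to -0.42 and an adjusted p of 0.319 in limma. Dusp1 differed by -1.18 ± 0.46, with an interval from -2.16 to -0.19 and an adjusted p of 0.388 in limma. Gadd45b differed by -1.21 ± 0.59 (-2.49 to 0.071). Those genes and Dusp14, at -0.25 ± 0.35 (-1.01 to 0.51), were lower in both knockout libraries than in all 3 of wild type, as were 12.2% of all genes. Dusp6 at -0.18 ± 0.38 had an interval from -0.998 to 0.63. Dusp5 at -1.78 ± 1.00 turned to 0.29 without knockout injured 1, where it was listed at 0. Without that library the differences of Gadd45g, Gadd45b and Dusp1 were -0.71, -0.61 and -0.51, and without wild-type injured 1, whose Cpeb1 value lay between those of the knockout injured libraries, -1.37, -1.17 and -0.99. At an unadjusted p under 0.05 there were 2 of the 8, Gadd45g and Dusp1, as were 10.5% of all genes.

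**Figure D3:**
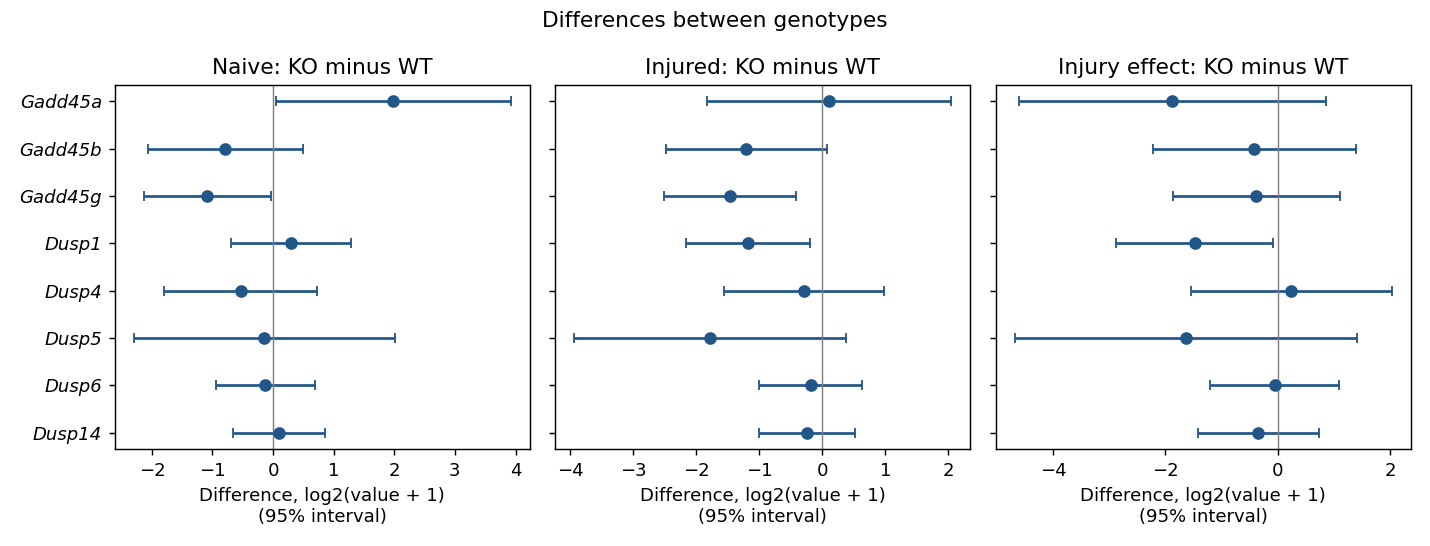
Points are knockout minus wild type on the log2(value + 1) scale with 95% intervals, for naive libraries, for injured libraries and for the injury effect. Gadd45a and Gadd45g in naive and Gadd45g and Dusp1 in injured libraries have intervals that leave out 0. None of the 8 passed after adjustment. The injury effect, where the interval of Dusp1 leaves out 0, is shown as a description. The 8 genes were selected on injured-minus-naive values of the same libraries, so no panel is independent of the choice.

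The injury effect itself was set side by side between the genotypes, subtracting the wild-type value from the knockout one. It is built from the injured-minus-naive values on which the 8 genes were selected, so for them it is a description and carries no test. It was -1.48 ± 0.65 (SE) for Dusp1, -0.38 ± 0.69 for Gadd45g and -0.42 ± 0.84 for Gadd45b. The 95% intervals were -2.87 to -0.079, -1.87 to 1.10 and -2.23 to 1.39. Gadd45a was at -1.88 ± 1.27, Dusp5 at -1.64 ± 1.41, Dusp14 at -0.34 ± 0.50, Dusp6 at -0.054 ± 0.53 and Dusp4 at 0.24 ± 0.83. No member and no other gene had an adjusted p under 0.05 in limma, so 0.00% of all genes did, while 979 genes had an unadjusted p under 0.05. Without knockout injured 1 the value for Dusp1 was -0.81, and it was 0.37 for Gadd45g and 0.18 for Gadd45b.

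Cpeb1 is known to bind the cytoplasmic polyadenylation element, here TTTTAT or TTTTAAT, in 3' untranslated regions. The sites in the members are shown because the genotypes differ in this protein; they come from GENCODE release M21 transcripts (mm10) with capitals for the element.
Gadd45a (chr6:67035183-67035206, minus strand, 96 bases from the 3' end): tctcagaagTTTTATtataaatct
Gadd45a (chr6:67035158-67035181, minus strand, 71 bases): actaagttaTTTTATgatgtgaaa
Gadd45b (chr10:80932108-80932132, plus strand, 81 bases): cacatctatTTTTAATattgtgctg
Dusp1 (chr17:26505613-26505636, minus strand, 32 bases): gatgactttTTTTATacaacagaa
Dusp4 (chr8:34819137-34819160, plus strand, 743 bases): gcaaccaatTTTTATtgagtggag
Dusp6 (chr10:99266777-99266800, plus strand, 698 bases): acctgatacTTTTATctgattatt
Dusp6 (chr10:99266845-99266868, plus strand, 630 bases): gtatttgttTTTTATctttgggct
Dusp6 (chr10:99266932-99266956, plus strand, 542 bases): aaatgttctTTTTAATccaaagggt
Dusp14 (chr11:84048049-84048073, minus strand, 17 bases): tagcgttatTTTTAATaaacttgct
The longest annotated region held the element in 6 of the 8 genes, and in 62.98% of 13116 protein-coding genes tested. Gadd45g and Dusp5 held none. The AU-rich letters ATTTA were in 5 of the 8 and in 70.62% of the genes, and TATTTAT was in Gadd45a once, in Dusp1 3 times and in 30.88% of the genes. A match describes the letters only.

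The 8 genes had few exons and short transcripts, which the choice did not use. The longest transcript of each had 3 or 4 exons, against a median of 9 over 13214 protein-coding genes tested. It was 1071 to 2796 nt long, with a median of 1780.5 nt against 3169.5 nt, and the 3' untranslated region was 489 to 1190 nt long, with a median of 633 nt against 1210.0 nt. All 8 were below the median of all genes in each of these measures, while for the span in the genome 7 were and Dusp1, at 56539 bases against a median of 24928, was not. In mm10 the genes lie at chr6:67035096-67037457 (Gadd45a), chr10:80930073-80932204 (Gadd45b), chr13:51846678-51848468 (Gadd45g), chr17:26505590-26562128 (Dusp1), chr8:34807297-34819894 (Dusp4), chr19:53529109-53542431 (Dusp5), chr10:99263231-99267489 (Dusp6) and chr11:84048041-84069261 (Dusp14).

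The rest of the pathway was followed in 10 lists with 120 genes, none of them a member, of which 112 were tested. In wild type 4 rose after injury and none fell, while 0.700% of all genes tested rose. In the knockout, in both genotype comparisons (naive, injured) and in the injury effect limma called none. Over all 15712 genes tested it called only 9, 23, 41 and 0 in these comparisons. Of the 112, an unadjusted p under 0.05 was reached by 23 in wild type (13.9% of all genes tested) and 4 in the knockout (5.73%). It was reached by 4 between genotypes in naive (3.76%) and 12 in injured libraries (10.5%), and by 12 in the injury effect (6.23%). Among the other phosphatases directed at MAP kinases, 1 of 5 rose, Dusp10, which acts on JNK and p38. It was listed at 0, 0.856 and 0 in naive wild-type libraries and was 20.5, 10.9 and 5.99 after injury, a difference of 3.30 ± 0.65 (SE, adjusted p = 0.0343 in limma). Its knockout values were 0.276 and 3.19 in naive and 5.76 and 9.92 in injured libraries. Without any 1 of the wild-type naive libraries, or without wild-type injured 1, the difference was 2.89 to 3.60 and did not pass, nor did it with a pseudocount of 0.1 (5.71) or with only the groups compared. The 12 atypical phosphatases other than Dusp14 had a median of -0.044, and none passed, with 1 at an unadjusted p under 0.05.

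No gene of the kinases themselves was called. None of 13 MAP kinases, 7 MAP2 kinases or 18 MAP3 kinases passed in wild type, with medians of -0.36, -0.52 and -0.051, against 0.0092 over all genes. At an unadjusted p under 0.05 there were 3, 2 and 0. Map3k4, which Gadd45 proteins bind and which was picked for that role outside the rule for named genes, was 2.65, 7.02 and 5.08 in naive wild-type libraries and 7.82, 4.33 and 6.38 after injury. These overlap. Neither did any of 9 scaffolds, 12 other inhibitors of the ERK pathway such as Sprouty and Spred genes, or 11 kinases downstream of MAP kinases pass, with medians of -0.22, 0.053 and 0.53 and 1, 3 and 2 genes at an unadjusted p under 0.05. Of 13 Gadd45 partners in the cell cycle and DNA demethylation, Cdkn1a rose, the cyclin-dependent kinase inhibitor p21. It was 34.7, 45.5 and 46.3 in naive wild-type libraries and 164, 103 and 168 after injury, a difference of 1.73 ± 0.29 (SE, adjusted p = 0.0154 in limma). It did not pass when wild-type injured 1 or any of the 3 naive wild-type libraries was left out, at 1.60 to 1.80.

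Of 12 genes known to follow ERK activity, 2 rose in wild type, Egr1 and Myc, both transcription factor genes. This list too was drawn up with earlier results of these data known. Egr1 was 4.38, 5.28 and 3.64 in naive and 60.7, 33.7 and 72.2 in injured libraries, a difference of 3.32 ± 0.46 (SE, adjusted p = 0.00514 in limma). It passed without any 1 library. Without the filter on low values neither Egr1 nor Dusp10, Cdkn1a or Myc passed, with adjusted p of 0.0552, 0.140, 0.0941 and 0.0604 in limma. Myc was 38.6, 38.3 and 36.0 in naive and 89.4, 66.2 and 94.3 in injured libraries, a difference of 1.11 ± 0.22 (adjusted p = 0.0353 in limma). It passed only when wild-type injured 2 was the library left out, and the difference lay between 1.01 and 1.27 over all 10 omissions. The list was above 0 for 11 of 12 genes in wild type (median 0.79, against 0.0092 over all genes tested). In the knockout it was above 0 for 6 of 12 (median -0.021, against -0.087). There none passed in limma and 1 had an unadjusted p under 0.05. None of the 12 passed in limma for the injury effect between genotypes, so a difference was not shown.

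**Figure D4:**
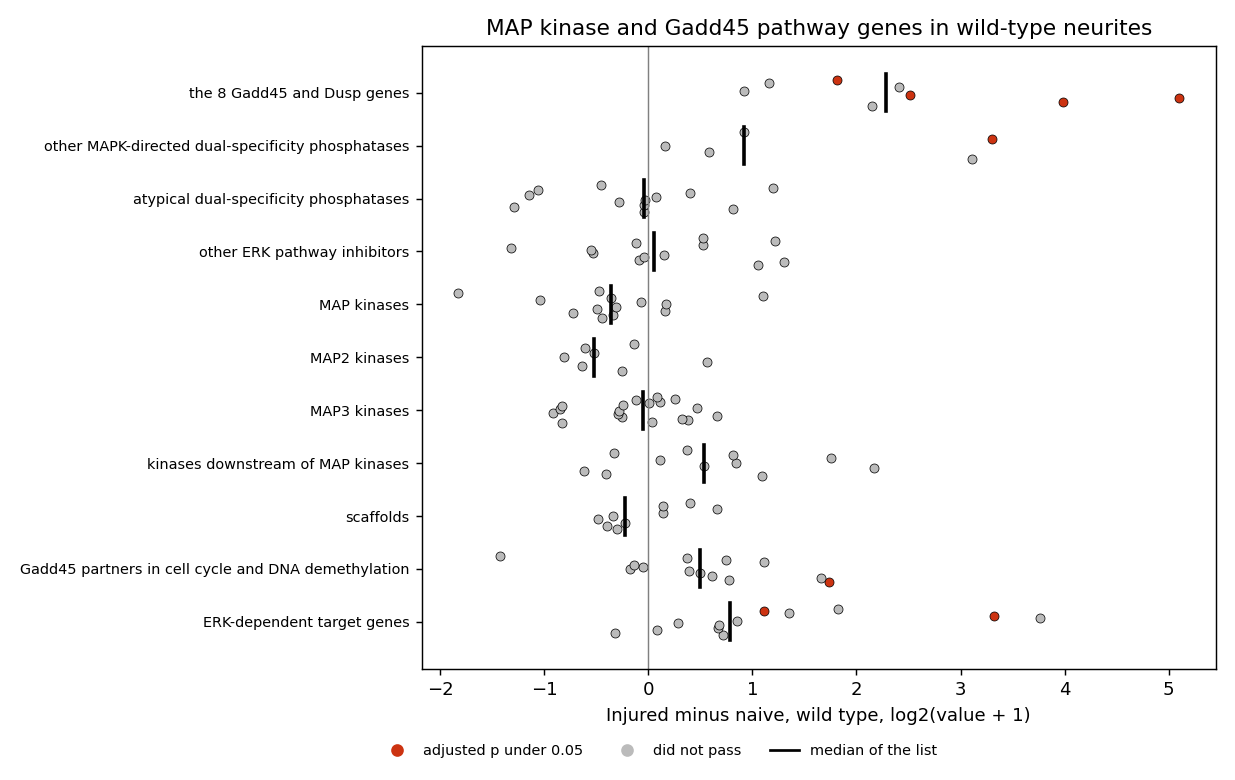
Each point is 1 gene, placed by injured minus naive in wild type on the log2(value + 1) scale, in rows for the 8 genes and for the 10 pathway lists; bars are medians and red points had an adjusted p under 0.05. The 8 genes, chosen with this comparison in view, have a median of 2.28, and the MAP kinase row one of -0.36. The lists were drawn up with earlier results of these data known.

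Genes whose pattern over the 10 libraries was most like each member were taken from 7496 protein-coding genes at or above the median level. For both Gadd45b and Gadd45g they were Ass1, an enzyme of arginine synthesis, and Nr4a2 and Jun, transcription factor genes, with Pearson's r of 0.96 to 0.98. For Dusp1 they were H2-K1, Efhd2 and Nr4a2 (0.95 to 0.96), and for Dusp6 they were Ptbp1, Srsf7 and Smc4 (0.95 to 0.97). Dusp5 was closest to Mcm2, Cdkn1b and Homer1 (0.95 for each), and Dusp14 to Gm6710, Ass1 and Junb (0.92 to 0.94). Dusp4 was closest to Hist1h4h, Pim3 and Sh3glb1 (0.88 to 0.94), and Gadd45a to Gnb2, Zswim7 and Ckap2 (0.91 to 0.96). Ass1, Hist1h4h, Ptbp1 and Gm6710 have near-identical copies, so their own values are uncertain. These are descriptions over 10 libraries in 4 groups, which set most of the spread.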

How the data were processed

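Poly(A) RNA of 10 neurite libraries was sequenced after Smart-seq2, which keeps no strand. The submitters' processing notes name STAR 2.4.2a, RSEM 1.2.21 and mm10. The authors' deposited values were read as FPKM, with 1 TMM factor dividing all values of a library; the notes do not state the unit, this rests on the values, and TPM divided in the same way is not excluded. Depth, which assumes FPKM, came from the value of 1 fragment. It was off by up to 0.027% in simulated columns, which held whole counts, 1 fragment length and no dividing factor. The deposited values need not share these settings, so that error does not carry over to them. By this estimate 1 value unit stood for 17.41 to 30.51 fragments per kilobase. Fragment numbers of a gene took the median length of its coding transcripts. Of 45195 IDs, 44548 matched GENCODE release M21 and 647 did not.

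Tests used limma 3.58.1 (R 4.3.3) on log2(value + 1), so differences of low genes are understated, with moderated variances that follow the mean level. All 10 libraries entered 1 fit with 4 group means, over the 15712 genes that reached 1 in 2 or more libraries (residual df 6, prior df 6.80). The scripts were tested on simulated data. Adjustment was by Benjamini-Hochberg over all genes tested, threshold 0.05, and all comparisons share libraries. The members and lists were chosen with earlier results of these data known. Named genes were all members, up to 4 passing genes per list (or the 1 with the smallest p), and the 3 genes most like each member. Alternatives were pseudocounts, filters, scaling, trend, replicate block, groups and each library left out. Tables were made with python 3.11.15 and pandas 2.3.3. Promoter windows are from RefSeq.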

Additional observations from a re-analysis of the deposited data

How the results depend on the processing

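The 4 members past the threshold after injury in wild type became 1 without the filter on low values (Gadd45g) and 2 without the mean-variance trend, and 2 to 4 when each library was left out. The 149 genes of that comparison became 25, 77 and, with only the groups compared, 90, and 35 to 311 with each library left out (311 without wild-type injured 2). In the knockout the 1 member became 0 without the trend or with only the groups compared, and 0 to 1 with each library left out. The 9 genes there became 1 with a pseudocount of 0.1, 33 without the filter, 4 with quantile normalization, 1 without the trend, 0 with only the groups compared, and 0 to 20 with each library left out. Genes between genotypes were 23 in naive (52 without the filter, 17 to 27 with each library left out) and 41 in injured libraries (24 to 57). The 0 genes of the injury effect became 13 without the filter, 3 without the trend and 0 to 2 with each library left out. Of the pathway genes called in wild type, Myc and Cdkn1a also did not pass without the trend, and Myc not with equal column totals or with only the groups compared. No member passed in a genotype comparison or the injury effect under any alternative run. Same-numbered libraries did not deviate together (correlations of -0.0484 to 0.0311). In groups of 2 libraries the deviations mirror each other, and the check cannot settle whether the numbers pair libraries. With a replicate block 146, 5, 20, 30 and 0 genes passed in the 5 comparisons. The members past the threshold there were 4, 1, 0, 0 and 0.

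Directions in wild type after injury, on which the members were chosen, held for all 8 under every alternative. With equal column totals, which moved the median of all genes by -0.22 (injury, wild type), 0.19 (injury, knockout), -0.17 (genotype, naive), 0.25 (genotype, injured) and 0.43 (injury effect), signs turned for Dusp14 (-0.10) in naive libraries, for Dusp4 (0.010), Dusp6 (0.15) and Dusp14 (0.086) in injured ones, and for Gadd45b (0.068), Gadd45g (0.14), Dusp6 (0.48) and Dusp14 (0.19) in the injury effect. Dusp6 also turned there with quantile normalization (0.066) and median-ratio scaling (0.11). Dusp5 turned in the knockout with a pseudocount of 0.1 (-0.26), and Dusp5 (0.15) and Dusp14 (-0.028) in naive libraries with the block. With each library left out, signs turned in the knockout for Gadd45a (-0.77 to 1.33) and Dusp5 (-1.30 to 2.85). In naive libraries they turned for Dusp1 (-0.33 to 0.92), Dusp5 (-0.52 to 0.045), Dusp6 (-0.59 to 0.33) and Dusp14 (-0.17 to 0.39). In injured libraries they turned for Gadd45a (-0.94 to 1.15), Dusp4 (-0.61 to 0.026), Dusp5 (-3.85 to 0.29) and Dusp6 (-0.38 to 0.017). In the injury effect they turned for Gadd45b (-1.02 to 0.18), Gadd45g (-1.13 to 0.37), Dusp4 (-0.074 to 0.70), Dusp5 (-3.71 to 0.44) and Dusp6 (-0.51 to 0.40). The cause was not tested. Groups of 2 and 3 libraries and few fragments for Gadd45a limit what can be told apart. For Dusp5 so does a value of 0 in knockout injured 1 beside 16.7 in knockout injured 2. A lone library was assumed to vary like the others.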
